A study of Mus musculus with 6 samples.

Results

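Regulatory T cells labelled as Bcl11b knockout (KO) were compared between mice with EAE and mice at steady state. EAE is the usual short form of experimental autoimmune encephalomyelitis, a T cell driven inflammation of the central nervous system that serves as a model of multiple sclerosis. The comparison used 4 of the 6 libraries of the series, chosen by their labels: KO EAE replicates 1 and 2 against KO replicates 1 and 2. The other libraries, 2 of wild type (WT) at steady state, entered the fit to share its estimate of the spread, and their values stand beside the results. Gene expression was measured by RNA sequencing of regulatory T cells sorted from mouse spleen and peripheral lymph nodes. KO and KO EAE share the strain label Bcl11bF/WT Foxp3YFP-Cre +/-, which names a floxed and a wild-type Bcl11b allele although the genotype label says KO. WT has the strain label Bcl11bF/F, which names no Cre, so the controls carry the floxed alleles too. In the KO groups Cre is driven from Foxp3, the gene that marks regulatory T cells. The age, the inducing antigen and the day or score of disease were not given in the sources used here. WT cells in EAE were not analysed here, so the response of KO cells could not be set against that of WT cells.

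Regulatory T cells are CD4 T cells that hold other immune responses in check, and their number and activity limit EAE. Signals through the T cell receptor switch on early response genes within minutes to hours, among them the Nr4a and Egr transcription factors, the AP-1 subunits and the dual-specificity phosphatases that switch MAP kinases off again. Continued receptor signals turn resting regulatory T cells into effector cells, which depend on Irf4 and c-Rel and secrete interleukin 10. Bcl11b, a zinc finger protein that binds DNA, is needed for T cell development and keeps mature T cells from taking on features of other lineages.

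Library totals lay between 14663542 and 16904312 reads, so that 3 reads, taken as the floor of a library, stood for 0.177 to 0.205 counts-per-million (CPM). This floor covers counting error only. All levels below are CPM after TMM scaling, and all differences are log2 changes, KO EAE minus KO, with the SE. The labels do not say whether replicates came from separate mice or sorts, so a p-value measures only the spread between these libraries, and that spread may be technical. Replicates differed most in KO EAE. Over the 14548 genes tested, the median size of the log2 ratio between replicates was 0.22 there, against 0.15 in KO and 0.11 in WT. WT replicate 2 had 1.35 CPM of Xist, the RNA of the inactive X chromosome, against 344 to 596 CPM in the other libraries, and none of the 4 Y-linked genes listed had a read in any library. T cell genes were read at like levels in both KO groups. Cd3e, a chain of the receptor complex, had 141 and 150 CPM in KO and 150 and 147 CPM in KO EAE, and Cd4 had 278 and 315 CPM against 305 and 298 CPM. The markers of macrophages, given with the other cell types below, were also read in every library.

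The promoters of the Nr4a family are shown because Nr4a3 was 1 of 2 genes called in this comparison and its relatives Nr4a1 and Nr4a2 lay above their KO levels in both KO EAE libraries. The sequences are from RefSeq (build GRCm38.p6), each running 5′ to 3′ on the strand of its gene from 250 bases before to 50 after the start. Capitals mark TGACG or, on the opposite strand, CGTCA, the core letters of the cAMP response element, which binds CREB and related factors.
Nr4a1, chr15:101266596-101266895, plus strand: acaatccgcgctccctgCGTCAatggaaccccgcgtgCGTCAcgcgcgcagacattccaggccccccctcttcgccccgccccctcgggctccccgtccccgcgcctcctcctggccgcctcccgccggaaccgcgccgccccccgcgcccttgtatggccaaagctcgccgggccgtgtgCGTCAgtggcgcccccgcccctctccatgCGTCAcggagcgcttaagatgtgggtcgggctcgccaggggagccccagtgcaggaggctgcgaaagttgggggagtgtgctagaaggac
Nr4a2, chr2:57123954-57124253, minus strand: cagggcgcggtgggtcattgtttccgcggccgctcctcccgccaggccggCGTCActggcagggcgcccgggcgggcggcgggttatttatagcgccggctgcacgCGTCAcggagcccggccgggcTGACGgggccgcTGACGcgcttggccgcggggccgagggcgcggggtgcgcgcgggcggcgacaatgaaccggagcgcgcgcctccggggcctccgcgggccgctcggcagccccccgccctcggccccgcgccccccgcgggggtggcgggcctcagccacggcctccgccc
Nr4a3, chr4:48045055-48045354, plus strand: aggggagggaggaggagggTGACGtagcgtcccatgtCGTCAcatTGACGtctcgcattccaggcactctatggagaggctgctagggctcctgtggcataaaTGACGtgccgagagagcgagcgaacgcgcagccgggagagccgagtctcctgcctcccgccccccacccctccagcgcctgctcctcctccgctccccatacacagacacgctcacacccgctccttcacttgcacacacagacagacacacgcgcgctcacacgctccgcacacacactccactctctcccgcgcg
Each of these promoters held 4 matches of the 5 letters, counted on both strands, although the place of the matches differed between the promoters. Of 13985 promoters of 11031 tested genes, 29.3% held at least 1 match, 2.045% at least 3 and 0.493% at least 4. The letters were chosen after the promoters had been read, and 4 is the number that these promoters held. The shares are therefore no test of enrichment. The whole palindrome TGACGTCA had 0 matches in all 3 and stood in 2.92% of the promoters. Every other motif searched also had 0 matches in all 3. Those of the AP-1 and NF-kappaB transcription factors, among them, stood in 5.38% and 7.05% of the promoters. A match is a stretch of letters, and binding was not measured here. Dusp4 was not found in the promoter table.

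Both genes that were called are in the list of the receptor-induced early response, which was chosen with earlier results of these data known. Nr4a3 and Dusp4 rose in KO EAE, and no gene fell. This was 2 of 14548 genes tested, or 0.0137%, with 0.0% called lower (two-sided quasi-likelihood test of edgeR, Benjamini-Hochberg adjustment, threshold 0.05). Without a correction, 463 genes (3.18%) were higher and 915 (6.29%) lower at p under 0.05. These shares are the background to the counts given for each list below. Both KO EAE libraries lay above both KO libraries for 2475 genes (17.0%) and below for 3100 (21.3%). DESeq2's Wald test, run as an alternative, called 58 genes higher (0.442%) and 73 lower (0.556%) of 13137. The median log2 change over all genes tested was -0.0027. Nr4a3 and Dusp4 are named because they were called, and Bcl11b, Foxp3, Mki67 and the most abundant members of a list by rule. Other genes named below were chosen after their values were seen.

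Nr4a3 (chr4:48045153-48086447) encodes an orphan nuclear receptor that the T cell receptor induces. It had 76.2 and 84.6 CPM in the KO replicates and 172 and 173 CPM in the KO EAE replicates. The KO EAE libraries were alike and both lay well above the KO libraries, and both lay below the WT libraries, at 270 and 272 CPM. The log2 change was 1.10 ± 0.08, a 2.15-fold rise (n = 2 libraries a group; edgeR with Benjamini-Hochberg adjustment, adjusted p = 0.0455).

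Dusp4 (chr8:34807297-34819894) encodes a nuclear phosphatase that inactivates MAP kinases. KO replicates had 60.2 and 67.1 CPM of it, KO EAE replicates 145 and 137 CPM, and WT replicates 205 and 204 CPM. The order of the groups was that of Nr4a3, with no overlap between KO and KO EAE. The log2 change was 1.15 ± 0.08, a 2.22-fold rise, with an adjusted p of 0.0455 in the same edgeR test.

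Neither call held without KO replicate 1, without KO replicate 2 or with the WT libraries left out. Without KO replicate 1 the adjusted p-values by edgeR were 0.335 for Nr4a3 and 0.352 for Dusp4, without KO replicate 2 they were 0.103 and 0.106, and with the 4 KO and KO EAE libraries alone both were 0.169. The log2 changes stayed between 1.02 and 1.19 for Nr4a3 and between 1.06 and 1.24 for Dusp4 when any of these 4 libraries was left out. The authors' normalized table holds other values under the same KO and WT library names and no KO EAE column. There, as parts-per-million of the summed signal, Nr4a3 had 1.54 and 0.873 in KO and 4.68 and 3.55 in WT, and Dusp4 had 24.9 and 21.8 in KO and 46.3 and 33.2 in WT. In both tables KO lay below WT for these 2 genes, although the level of Nr4a3 was far lower in the normalized table.

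**Figure D1:**
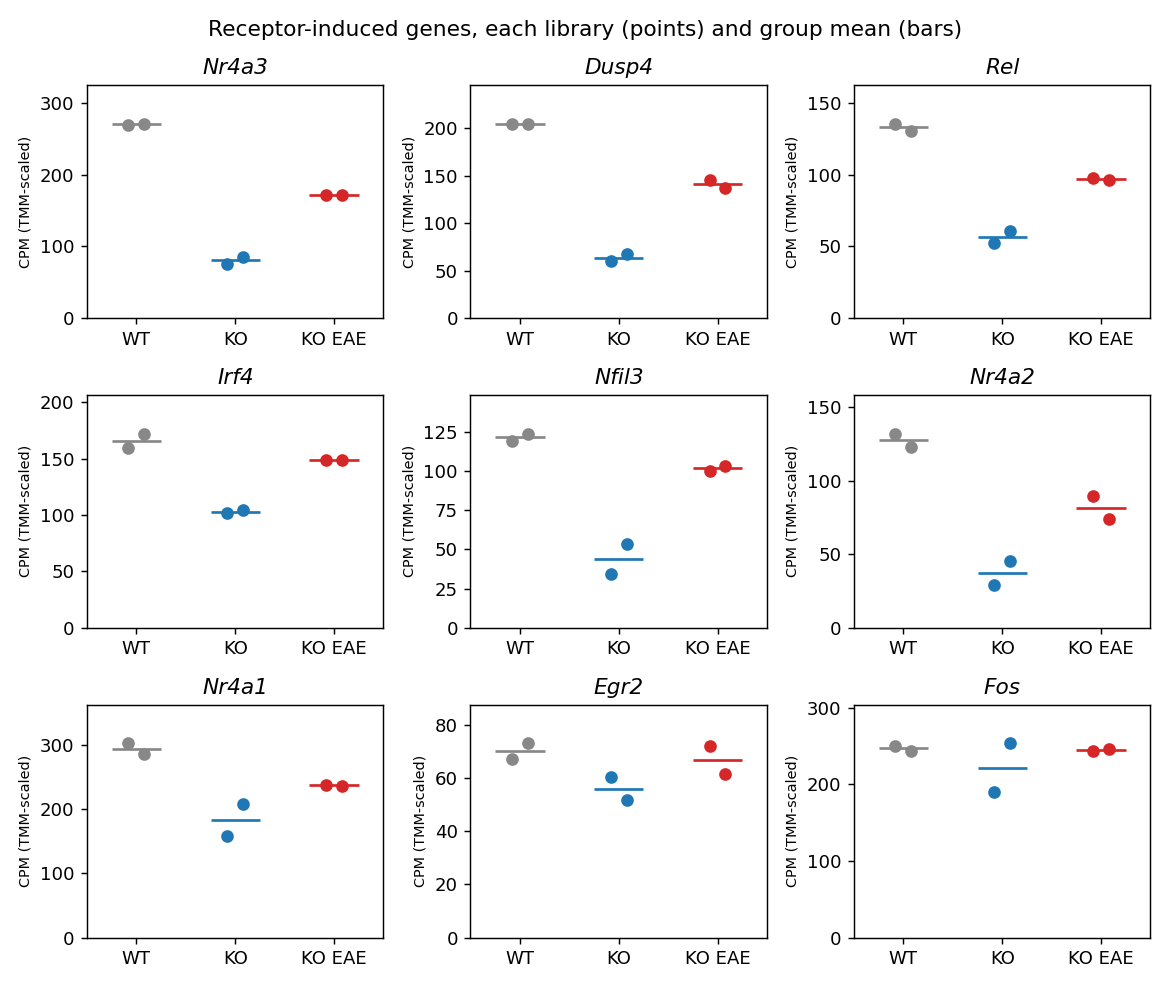
Level (CPM after TMM scaling, linear axes from 0) of 9 receptor-induced or effector genes in each library (points), with the mean of each group (bars), for WT, KO and KO EAE with 2 libraries each. Nr4a3 and Dusp4 were called, with KO EAE at 137 to 173 CPM against 60.2 to 84.6 CPM in KO, while the KO libraries of Fos lay apart, at 189 and 253 CPM.

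Other transcription factors of the early response list were higher in both KO EAE libraries without passing the edgeR test. Signals through the T cell receptor were not measured here. Rel, which encodes the NF-kappaB subunit c-Rel, had 52.3 and 60.5 CPM in KO, 97.4 and 96.3 CPM in KO EAE and 136 and 130 CPM in WT. Its log2 difference was 0.78 ± 0.09 (edgeR with Benjamini-Hochberg adjustment, adjusted p = 0.267). Irf4, a factor that receptor signals induce in proportion to their strength, had 102 and 104 CPM in KO, 149 and 149 CPM in KO EAE and 159 and 172 CPM in WT, a difference of 0.53 ± 0.07. The groups did not overlap for either gene, and the replicates of KO EAE lay within 2 CPM of each other. Nr4a2 had 29.1 and 45.6 CPM in KO and 89.6 and 73.7 CPM in KO EAE, a difference of 1.13 ± 0.21. Nr4a1 had 158 and 208 CPM in KO and 238 and 236 CPM in KO EAE, a difference of 0.37 ± 0.13. Thus the 3 members of the family whose promoters are shown were all higher in both KO EAE libraries, and only Nr4a3 passed the test. DESeq2's Wald test with Benjamini-Hochberg adjustment called Rel, Irf4, Nr4a2 and the phosphatase gene Dusp5 beside Nr4a3 and Dusp4.

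Over the list of 33 early response genes, 2 were called higher and 0 lower by edgeR, 10 were higher and 1 lower at an unadjusted p under 0.05, and the groups did not overlap for 18 higher and 1 lower. Over all genes tested, 3.18% were higher and 6.29% lower at that p, and 17.0% higher and 21.3% lower without overlap. The median log2 difference of the list was 0.25, beside -0.0027 over all genes tested. The KO replicates differed from each other here by as much as the groups did. In 30 of the 33 genes KO replicate 2 was above KO replicate 1, with a median log2 ratio of 0.33, against -0.06 between the KO EAE replicates. Fosb, an AP-1 subunit, had 195 and 334 CPM in KO and 358 and 345 CPM in KO EAE, and Cd69, an early surface antigen that retains T cells in lymph nodes, had 89.3 and 151 CPM against 165 and 163 CPM. In each, KO replicate 2 lay close to the KO EAE libraries and KO replicate 1 far below. Leaving out KO replicate 1 brought the median of the list to 0.07, and leaving out KO replicate 2 brought it to 0.43. Egr3 and the growth regulator Myc were not higher in KO EAE: Myc had 108 and 106 CPM in KO and 114 and 99.9 CPM in KO EAE.

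**Figure D2:**
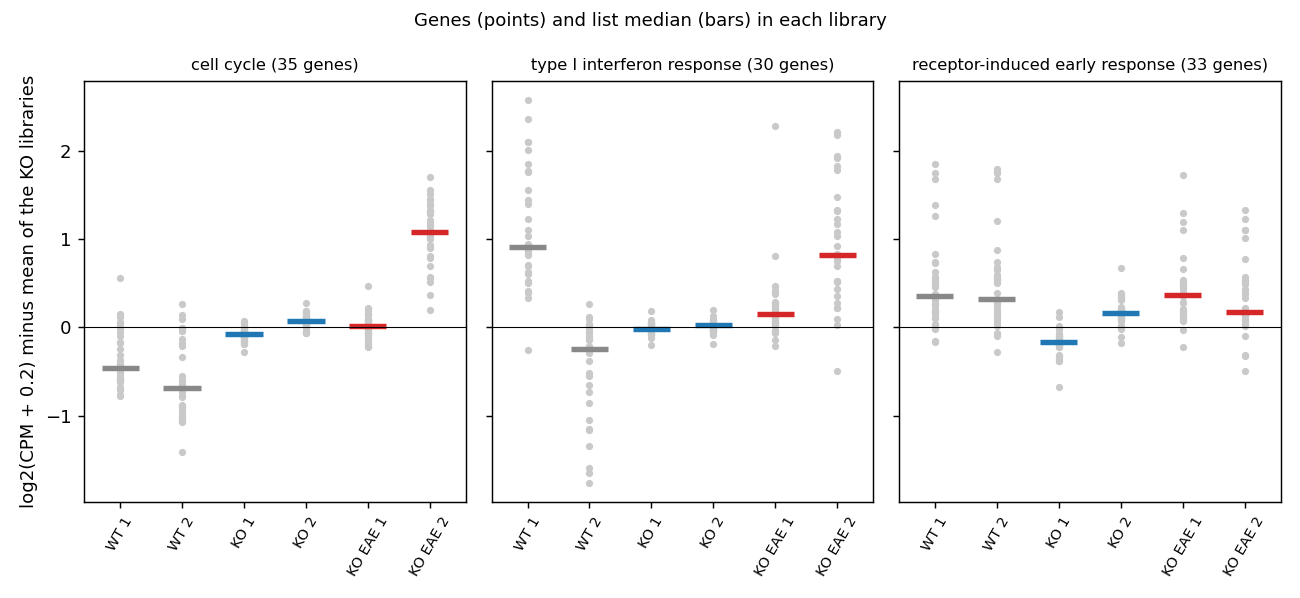
Genes of 3 lists (points) and their median (bars) in each library, as log2(CPM + 0.2) minus the mean of the KO libraries for that gene. For the cell cycle list KO EAE replicate 2 stands apart from replicate 1, and for the early response list the KO replicates lie on either side of 0.

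The defining genes of regulatory T cells had close values in KO and KO EAE. Foxp3, the lineage factor, had 165 and 155 CPM in KO, 163 and 149 CPM in KO EAE and 211 and 206 CPM in WT, a log2 difference of -0.03 ± 0.08 between KO EAE and KO (edgeR with Benjamini-Hochberg adjustment, adjusted p = 0.89). Il2ra, the high-affinity chain of the interleukin 2 receptor, had 186 and 190 CPM in KO and 187 and 184 CPM in KO EAE, a difference of -0.02 ± 0.07. Bcl11b itself had 371 and 370 CPM in KO, 404 and 278 CPM in KO EAE and 420 and 425 CPM in WT, a difference of -0.12 ± 0.17. For these 3 genes the KO and KO EAE groups overlapped. The count covers the whole gene and does not isolate a deleted part, so it checks the KO label little.

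Of 33 genes of the regulatory T cell signature, edgeR called 0. At an unadjusted p under 0.05, 6 were higher and 2 lower, beside 3.18% and 6.29% of all genes tested. DESeq2 called 2 higher, beside 0.442% of 13137 genes, and the median log2 difference of the list was 0.04. The most abundant members, Ikzf2 (Helios) at 297 and 266 CPM in KO and 308 and 261 CPM in KO EAE, and Il2rb, the shared chain of the interleukin 2 and 15 receptors, at 260 and 277 CPM against 292 and 291 CPM, differed by 0.02 ± 0.12 and 0.12 ± 0.08. The member with the smallest p was Il10, the suppressive cytokine. It had 11.0 and 10.5 CPM in KO, 30.5 and 22.0 CPM in KO EAE and 29.8 and 38.6 CPM in WT. Its difference was 1.29 ± 0.22 (edgeR adjusted p = 0.361), and DESeq2's Wald test called it. Rgs16, a regulator of G protein signals, had 80.3 and 70.9 CPM in KO and 109 and 101 CPM in KO EAE. Lrrc32, which encodes GARP, the protein that holds latent TGF-beta at the cell surface, had 106 and 87.0 CPM in KO, 127 and 119 CPM in KO EAE and 307 and 299 CPM in WT. Entpd1 (CD39), which breaks down extracellular ATP, was lower in both KO EAE libraries, at 91.3 and 109 CPM against 130 and 134 CPM.

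Effector genes were read out next. Of 32 genes of effector regulatory T cells edgeR called 0, and DESeq2 called 3 higher (Irf4, Nfil3 and Il10). At an unadjusted p under 0.05, 7 were higher and 3 lower, beside 3.18% and 6.29% of all genes tested. The median difference of the list was 0.05, which became 0.22 without KO EAE replicate 1 and -0.08 without KO EAE replicate 2. Nfil3, a basic leucine zipper factor, had 34.5 and 53.2 CPM in KO, 100 and 103 CPM in KO EAE and 119 and 124 CPM in WT, a difference of 1.22 ± 0.19. Areg, the tissue repair factor amphiregulin, had 3.35 and 5.66 CPM in KO and 13.5 and 8.55 CPM in KO EAE. These genes were higher in both KO EAE libraries, as was Bhlhe40, at 229 and 258 CPM against 147 and 192 CPM. Il1rl1, the receptor of interleukin 33, lay the other way, at 23.4 and 33.1 CPM in KO and 17.7 and 16.5 CPM in KO EAE. The chemokine receptor gene Cxcr6 was also lower, at 67.3 and 62.9 CPM against 90.0 and 94.7 CPM. The most abundant members, Cd44 and Tnfrsf1b, differed by -0.06 ± 0.12 and 0.06 ± 0.09, with overlapping groups.

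Of 26 genes of interleukin 2 and STAT5 signals edgeR called 0, with 3 higher and 0 lower at an unadjusted p under 0.05 and 1 higher by DESeq2, and the median difference was 0.06. The list holds feedback inhibitors of these signals. Socs3 had 165 and 182 CPM in KO and 240 and 231 CPM in KO EAE, a difference of 0.44 ± 0.08, and Cish had 100 and 99.2 CPM against 122 and 122 CPM, a difference of 0.29 ± 0.06. The groups did not overlap for either gene. Jak1 and Ccnd2, the most abundant members, had differences of 0.07 ± 0.10 and -0.08 ± 0.11. Of 25 NF-kappaB pathway genes edgeR called 0, 3 were higher and 0 lower at an unadjusted p under 0.05, DESeq2 called Rel alone, and the median was 0.06.

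**Figure D3:**
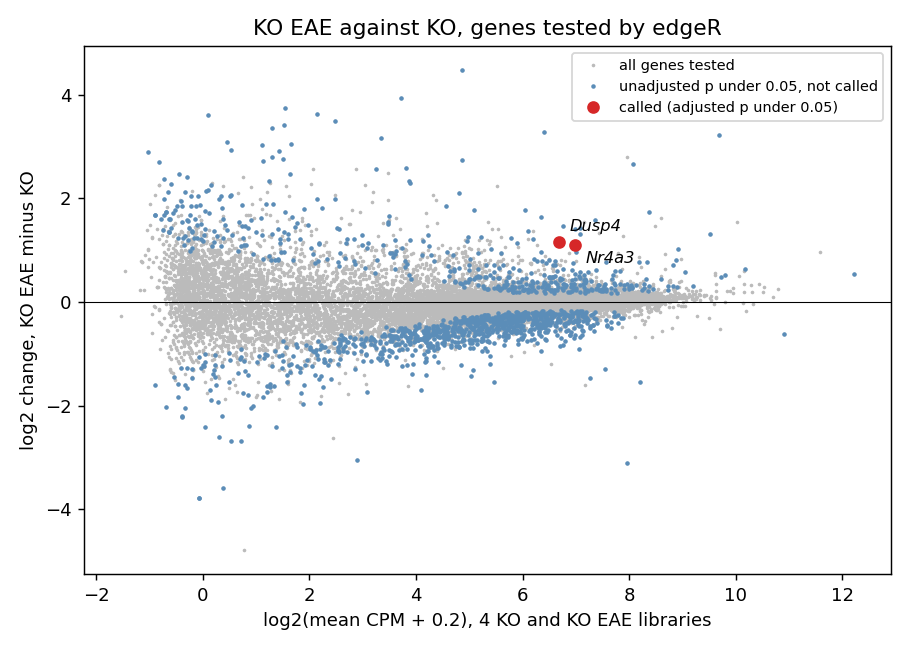
Log2 change (KO EAE minus KO) of each of the 14548 genes tested against its mean level, as log2(mean CPM + 0.2) over the 4 KO and KO EAE libraries. The 2 genes called by edgeR are in red, and genes at an unadjusted p under 0.05 that were not called are in blue, more of them below 0 than above it.

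Away from the lists, the gene with the smallest p after the called genes was Cox7a2l, which encodes an assembly factor of respiratory supercomplexes. It had 237 and 297 CPM in KO, 110 and 108 CPM in KO EAE and 114 and 116 CPM in WT, so that KO stood apart from both other groups. The difference was -1.29 ± 0.11 (edgeR with Benjamini-Hochberg adjustment, adjusted p = 0.115), and with no filter on low counts edgeR called it, with an adjusted p of 0.0282. Ddx5, an RNA helicase, had 383 and 459 CPM in KO, 1200 and 895 CPM in KO EAE and 1343 and 1333 CPM in WT, a difference of 1.32 ± 0.18. Zbtb10, a zinc finger repressor, had 32.6 and 46.1 CPM in KO, 138 and 106 CPM in KO EAE and 181 and 226 CPM in WT. For Ddx5 and Zbtb10 KO EAE lay between KO and WT. Since KO is in both comparisons, a high or low value in KO moves the difference from KO EAE and that from WT together.

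Among the lower genes several were low in WT as well. Agap1, which regulates membrane traffic, had 98.0 and 98.8 CPM in KO, 53.7 and 59.4 CPM in KO EAE and 3.19 and 3.18 CPM in WT, a difference of -0.80 ± 0.08 (edgeR adjusted p = 0.196). Stab2, a scavenger receptor of endothelium and macrophages, had 121 and 123 CPM in KO, 76.6 and 79.8 CPM in KO EAE and 6.13 and 6.98 CPM in WT. Jup, which encodes the junction protein plakoglobin, had 137 and 151 CPM in KO, 92.8 and 92.5 CPM in KO EAE and 12.5 and 11.8 CPM in WT. In each of these the KO EAE libraries lay below the KO libraries and far above WT. The same order held for Tspan15, at 40.6 and 39.1 CPM in KO, 16.8 and 17.4 CPM in KO EAE and 1.25 and 1.04 CPM in WT, and for the TNF receptor family member Tnfrsf21, at 91.2 and 102 CPM, 59.9 and 64.7 CPM, and 2.88 and 3.43 CPM. DESeq2's Wald test called all 5 lower, and edgeR called 0 of them.

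Markers of macrophages were read beside these genes, since a sort can carry over other cells. The 29 tested members summed to 3722 and 4446 CPM in KO, 3296 and 4089 CPM in KO EAE, and 831 and 801 CPM in WT. In both KO groups replicate 2 was the higher, in 28 of 29 members, and the sums of KO and KO EAE overlapped. edgeR called 0 of the 29. At an unadjusted p under 0.05, 4 were lower, among them Marco, Timd4 and Cd163, and 1 was higher (Ly6c2), DESeq2 called 2 lower, Marco among them, and the groups did not overlap for 14 lower and 1 higher. Over all genes tested, 6.29% were lower and 3.18% higher at that p, and 21.3% lower and 17.0% higher without overlap. The median difference of the 29 was -0.17. Marco, a scavenger receptor of splenic marginal zone macrophages, had 35.8 and 59.4 CPM in KO and 14.8 and 23.4 CPM in KO EAE. The most abundant members, Axl and Csf1r, differed by -0.17 ± 0.10 and -0.18 ± 0.13, with 310 and 323 CPM of Csf1r in KO EAE. In sorted bulk samples, fewer cells of a type and less RNA per cell cannot be told apart, and the part of these markers in the lower genes was not tested.

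Of 18 dendritic cell markers edgeR called 0, and DESeq2 called Itgax alone lower. At an unadjusted p under 0.05, 4 were lower and 0 higher, beside 6.29% and 3.18% of all genes tested. The median of the 18 was -0.37, and it was -0.06 without KO replicate 2, -0.13 without KO EAE replicate 1 and -0.60 without KO EAE replicate 2. Itgax (CD11c) had 92.1 and 123 CPM in KO and 59.3 and 70.6 CPM in KO EAE. The most abundant members, the receptor genes Sirpa and Ccr7, differed by -0.25 ± 0.11 and 0.10 ± 0.11. Siglech, a receptor of plasmacytoid dendritic cells, varied most within a group, at 3.35 and 22.5 CPM in KO and 0.385 and 2.70 CPM in KO EAE. Of 14 B cell markers edgeR and DESeq2 called 0, and 2 were lower at an unadjusted p under 0.05 (Bank1 and Blnk). All 14 were higher in replicate 2 of KO and in replicate 2 of KO EAE, and they summed to 193 and 283 CPM in KO and 144 and 244 CPM in KO EAE. The list median of -0.59 became 0.29 without KO replicate 2 and -1.03 without KO replicate 1. It was -0.22 without KO EAE replicate 1 and -1.29 without KO EAE replicate 2.

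Of 24 NK and cytotoxic genes edgeR and DESeq2 called 0. At an unadjusted p under 0.05, 5 were lower and 0 higher, beside 6.29% and 3.18% of all genes tested. Those 5 encode NK receptors: Klra7, Klra9, Klre1, Klri2 and Ncr1. Ncr1, the activating receptor NKp46, had 8.74 and 6.35 CPM in KO and 1.99 and 3.41 CPM in KO EAE, a difference of -1.48 ± 0.40. Gzmb, the cytotoxic protease granzyme B, had 17.5 and 24.2 CPM in KO and 21.8 and 99.6 CPM in KO EAE. Gzmb was high in KO EAE replicate 2 alone. Over all 24 genes the median was -0.07, which became 0.09 without KO EAE replicate 1 and -0.41 without KO EAE replicate 2. The groups did not overlap for 8, all lower, where 21.3% of all genes tested were lower without overlap. The most abundant members, Fcer1g and Il18rap, differed by -0.09 ± 0.10 and -0.07 ± 0.34. Klra receptors are related in sequence, and reads could have been split between them.

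**Figure D4:**
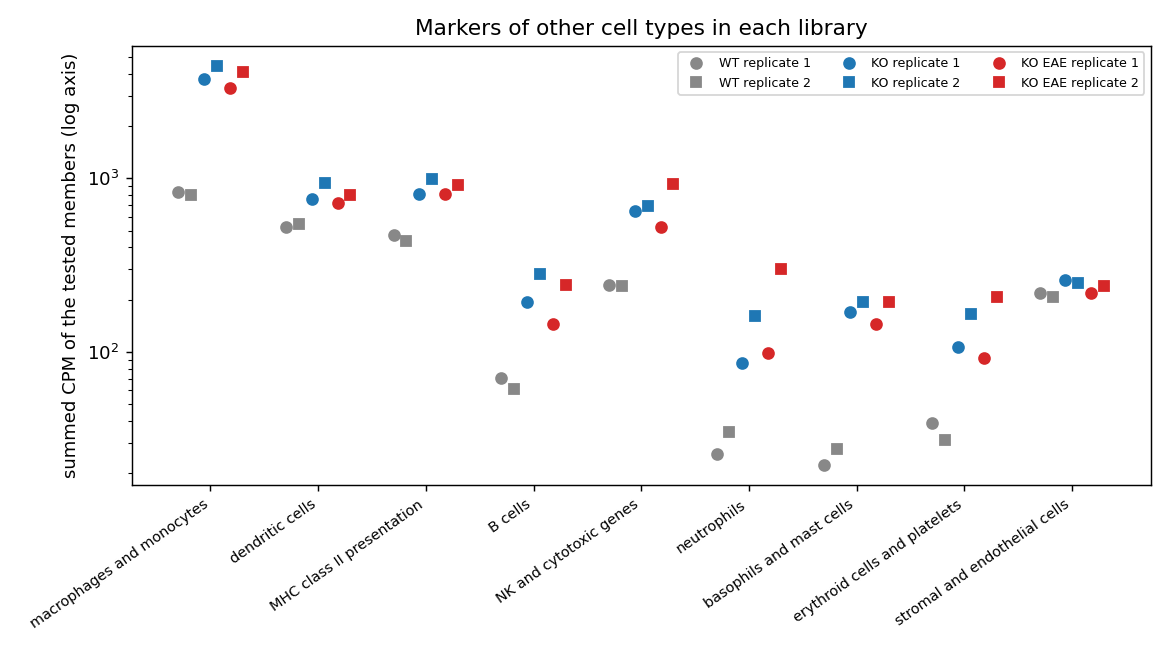
Summed level (CPM after TMM scaling, log axis) of the tested markers of 9 other cell types and functions in each library, with circles for replicate 1 and squares for replicate 2. KO and KO EAE overlap for all lists but the stromal one, and neutrophil markers reach 299.9 CPM in KO EAE replicate 2.

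The neutrophil list had the largest median of the 40 lists, 2.21, and 16 of its 17 tested members were higher in KO EAE replicate 2 than in replicate 1. They summed to 86.2 and 161 CPM in KO and 97.8 and 299.9 CPM in KO EAE. edgeR called 0, and DESeq2 called Ltf and Prtn3 higher. At an unadjusted p under 0.05, 6 were higher and 0 lower, beside 3.18% and 6.29% of all genes tested. The granule genes Mpo (myeloperoxidase) and Prtn3 (proteinase 3) had 2.44 and 33.2 CPM and 1.73 and 13.9 CPM in KO EAE, against 1.87 and 2.12 CPM and 0.454 and 0.819 CPM in KO. The most abundant members, Mmp9 and Csf3r, differed by -0.41 ± 0.33 and -0.21 ± 0.47, with overlapping groups. Elane, the neutrophil elastase gene, was below the filter on low counts, with 2 and 4 reads in KO and 9 and 119 reads in KO EAE. These are genes that immature granulocytes transcribe, and Mpo and Prtn3 were above 10 CPM in KO EAE replicate 2 alone. The list median was 0.29 without KO EAE replicate 2 and 3.01 without KO EAE replicate 1.

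Proliferation genes also separated the KO EAE replicates. Mki67, the antigen of dividing cells, had 190 and 220 CPM in KO, 212 and 538 CPM in KO EAE and 164 and 136 CPM in WT. KO EAE replicate 1 lay within the KO libraries, and replicate 2 lay far above all others. The difference of 0.87 ± 0.40 was not called (edgeR with Benjamini-Hochberg adjustment, adjusted p = 0.551). Of 35 cell cycle genes edgeR and DESeq2 called 0, and the median was 0.66. At an unadjusted p under 0.05, 3 were higher and 0 lower, beside 3.18% and 6.29% of all genes tested. The groups did not overlap for 11, all higher, where 17.0% of all genes tested were higher without overlap. All 35 were higher in KO EAE replicate 2 than in replicate 1, with a median log2 ratio of 1.12. Hmgb2, the other abundant member of the list, had 228 and 334 CPM in KO and 322 and 748 CPM in KO EAE. Ccnb1, the mitotic cyclin B1, had 33.8 and 36.7 CPM in KO and 33.5 and 88.5 CPM in KO EAE, and Top2a, the DNA topoisomerase of dividing cells, had 159 and 199 CPM against 173 and 333 CPM. Without KO EAE replicate 2 the list median was 0.00. Without KO EAE replicate 1 the list median was 1.10. The neutrophil and cell cycle genes were high in the same library, and the part of any carried-over cells was not tested.

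Histone genes of the replication-dependent type had a median of 0.67 over 24 genes, which was 0.67 without KO EAE replicate 1 and 0.69 without replicate 2. Their summed level was highest in KO EAE replicate 2, at 132 and 126 CPM in KO and 140 and 232 CPM in KO EAE. Hist1h2ag, an abundant member, had 28.3 and 14.8 CPM in KO and 12.8 and 74.7 CPM in KO EAE, and its log2 difference was 1.79 without KO EAE replicate 1 and -0.75 without replicate 2. Hist1h3a had 1.70 and 1.84 CPM in KO and 3.40 and 2.83 CPM in KO EAE, and Hist1h3c had 1.82 and 1.71 CPM against 3.47 and 2.83 CPM. edgeR and DESeq2 called 0 of the 24. At an unadjusted p under 0.05, 4 were higher and 0 lower, beside 3.18% and 6.29% of all genes tested. The groups did not overlap for 13, all higher, where 17.0% of all genes tested were higher without overlap. Histone genes of this type are near-identical copies, and their transcripts lack the poly(A) tail that many RNA kits select.

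Type I interferon genes, which antiviral signals induce, were higher in both KO EAE libraries for 23 of 30 genes and lower for 1. Over all genes tested, 17.0% were higher and 21.3% lower in both. The median difference of the 30 was 0.54. edgeR and DESeq2 called 0, and 0 had an unadjusted p under 0.05. Ifit3 had 99.6 and 96.9 CPM in KO, 119 and 373 CPM in KO EAE and 421 and 44.1 CPM in WT. Oas1a, a sensor of double-stranded RNA, had 79.8 and 80.5 CPM in KO, 104 and 203 CPM in KO EAE and 165 and 44.0 CPM in WT. In both genes the KO libraries were alike, while KO EAE replicate 2 and WT replicate 1 were high. Trim30a, among the most abundant members, differed by 0.30 ± 0.29. The spread between the WT replicates entered the shared estimate of the spread for these genes. The median was 0.83 without KO EAE replicate 1 and 0.15 without KO EAE replicate 2.

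**Figure D5:**
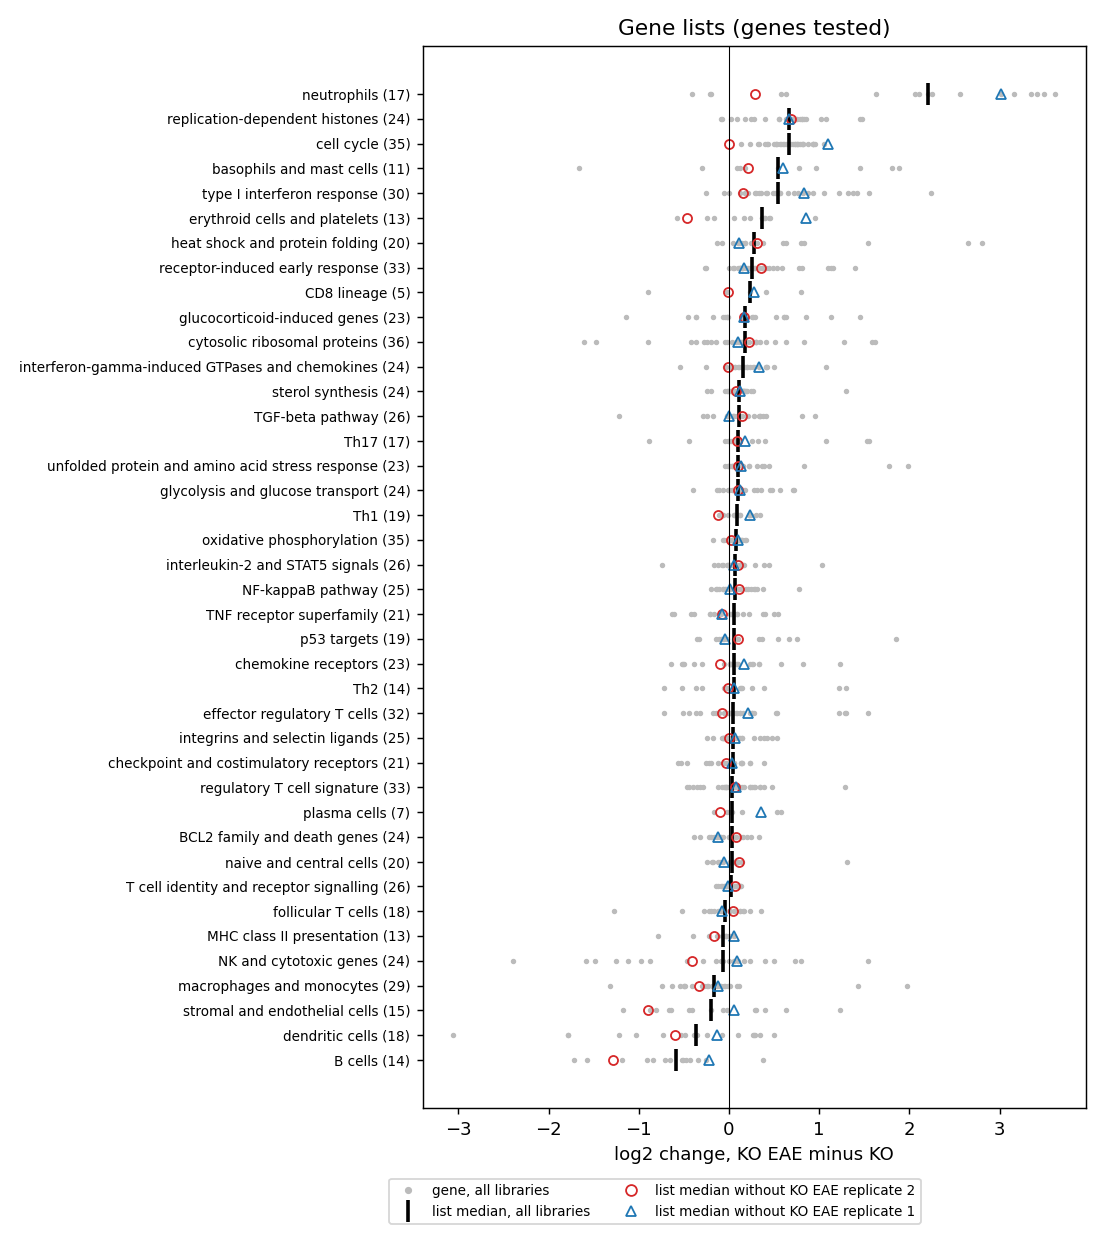
Log2 change (KO EAE minus KO) of the tested genes of 40 lists (grey points), with the list median (black bars) and the median without KO EAE replicate 1 (blue triangles) or replicate 2 (red circles). The number of genes tested is in brackets, and the medians of neutrophil, cell cycle and type I interferon genes move towards 0 when KO EAE replicate 2 is left out.

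The T helper lists had medians near 0. edgeR called 0 of 19 Th1, 14 Th2, 17 Th17 and 18 follicular genes, whose median differences were 0.09, 0.05, 0.10 and -0.04. At an unadjusted p under 0.05, 1, 2, 3 and 1 of them were higher and 0, 1, 0 and 0 lower, and DESeq2 called Nfil3 alone. Il17a, the cytokine that defines Th17 cells, had 3.12 and 8.05 CPM in KO, 12.3 and 20.2 CPM in KO EAE and 1.31 and 2.08 CPM in WT, a difference of 1.55 ± 0.51. Il17f had 1.93 and 7.57 CPM against 9.96 and 9.90 CPM. Both cytokine genes were higher in both KO EAE libraries. Ifng, the Th1 cytokine, had 48.0 and 66.3 CPM in KO and 66.4 and 67.2 CPM in KO EAE, so that KO replicate 2 nearly reached the KO EAE libraries. Csf2, which encodes GM-CSF, was low, at 1.53 and 1.57 CPM in KO and 0.835 and 0.835 CPM in KO EAE.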

How the data were processed

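Per the labels' protocols, RNA of sorted cells was isolated on columns for small samples and NEBNext Ultra II libraries were run on a NextSeq500. HISAT2, HTSeq, DESeq2 and mm10 are named, without versions, per the submitters' processing notes, and whether counting used strand is not given in the sources used here. The authors deposited whole-number read counts per gene, not normalized, for all 6 libraries. They also deposited a normalized signal for WT and KO, in which 100% of values were whole multiples of 1 read (tolerance 0.02). By these values it holds counts divided by size factors, but not the counts of the 6 libraries above. The KO replicates had 25335011 and 24065561 recovered reads, against 16904312 and 14663542 deposited counts. The reason is not given in the sources used here. Reads so recovered were tested by edgeR as an added alternative, which called 12 of 12253 genes between KO and WT; KO EAE is not in that table. The authors' own comparison of KO with WT was not used here. Of 24449 count rows, 25 that name no gene were left out (at most 0.217% of a library's reads; 27 rows and 0.284% in the normalized table).

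Counts were tested with edgeR 4.0.16 in R 4.3.3: filterByExpr (minimum count 10, minimum total 15), TMM, glmQLFit and glmQLFTest, all 6 libraries with a coefficient per group. DESeq2 1.42.0 was an alternative. The common biological coefficient of variation was 0.178. The SE was taken from the F statistic, as the absolute log2 change over its square root. The edgeR fit of KO EAE against KO with all 6 libraries was tested on simulated data, and the other fits were not. Replicates differed by more than sampling noise (chi-square over degrees of freedom: WT 16.5, KO 19.8, KO EAE 32.0). Gene coordinates are from GENCODE M21 (mm10) by symbol. The comparison, the 41 gene lists (809 genes, 802 matched by symbol, 1 list only to check samples) and the tests were chosen with earlier results of these data known. The rule named Bcl11b, Foxp3, Mki67, up to 12 called genes in each direction with a mean of at least 5 CPM, up to 4 called genes a list, and the 2 most abundant members of lists with none called or of other cell types. Some genes of the lists are not reported here.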

Additional observations from a re-analysis of the deposited data

How the results depend on the processing

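The count of genes called by edgeR, 2 higher and 0 lower, was 2 and 0 again with DESeq2 size factors, with library totals alone and with a further threshold of more than 2-fold. With no filter on low counts it was 2 higher and 1 lower (Cox7a2l). With the 4 KO and KO EAE libraries alone it was 0 higher and 0 lower, and DESeq2's Wald test called 58 higher and 73 lower. Leaving out a library gave 0 to 207 higher and 0 to 106 lower: both counts were 0 without KO replicate 1 or KO replicate 2, 207 and 106 without KO EAE replicate 1, and 8 and 0 without KO EAE replicate 2. In these fits the lone library is assumed to vary like the other groups, and the cause of the change was not tested. A fit with the replicate number as a block called 0 higher and 0 lower, with an adjusted p of 0.214 for Nr4a3 and Dusp4. Same-numbered deviations from the group means correlated at 0.20 between KO EAE and KO, -0.086 between KO EAE and WT and 0.012 between KO and WT, and the labels do not say whether equal numbers pair samples. The direction of list medians changed in 12 of 40 lists without KO replicate 1, 3 without KO replicate 2, 9 without KO EAE replicate 1 and 11 without KO EAE replicate 2. Library totals alone moved the median of all genes to -0.037. With 2 libraries a group, an adjusted p that misses the threshold does not show that a gene did not differ.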

Other observations

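Some heat shock genes varied widely between libraries. The most abundant heat shock gene, Hspa8, had 223 and 849 CPM in KO, 2076 and 1042 CPM in KO EAE and 766 and 261 CPM in WT. Hspa1b, which encodes the inducible chaperone Hsp70, had 22.9 and 125 CPM in KO, 468 and 459 CPM in KO EAE and 79.0 and 256 CPM in WT. Its co-chaperone gene Bag3 had 46.8 and 60.7 CPM in KO and 102 and 88.7 CPM in KO EAE, a log2 difference of 0.83 ± 0.16, which DESeq2's Wald test called. These 3 genes were higher in both KO EAE libraries than in both KO libraries, as were 7 of the 20 heat shock genes in all. Over all genes tested that share was 17.0%. Dnaja1, the other abundant member, had a log2 difference of 0.38, which was 0.02 without KO replicate 1 and 0.01 without KO EAE replicate 1. Of 20 heat shock genes edgeR called 0, with 2 higher and 0 lower at an unadjusted p under 0.05 and a median of 0.27, which was 0.06 without KO replicate 1, 0.46 without KO replicate 2, 0.11 without KO EAE replicate 1 and 0.31 without KO EAE replicate 2. Of 24 glycolysis genes edgeR called 0. At an unadjusted p under 0.05, 5 were higher and 0 lower, beside 3.18% and 6.29% of all genes tested. Slc2a1, the glucose transporter GLUT1, had 79.7 and 78.5 CPM in KO, 112 and 109 CPM in KO EAE and 130 and 137 CPM in WT, and DESeq2 called it alone in that list.

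Vegfa, the vascular growth factor, had 1.48 and 1.91 CPM in KO, 7.26 and 6.11 CPM in KO EAE and 10.1 and 9.74 CPM in WT, a log2 difference of 1.98 ± 0.28 (edgeR with Benjamini-Hochberg adjustment, adjusted p = 0.267). Cdkn1a, the cell cycle inhibitor p21, had 5.90 and 14.5 CPM in KO, 26.9 and 46.5 CPM in KO EAE and 22.5 and 28.7 CPM in WT. Tgif1, a repressor of TGF-beta responses, had 54.4 and 76.8 CPM in KO, 122 and 108 CPM in KO EAE and 143 and 153 CPM in WT. edgeR called 0 of these 3 genes, whose groups did not overlap, and DESeq2's Wald test called all 3 higher. Of 35 oxidative phosphorylation genes edgeR and DESeq2 called 0, 0 had an unadjusted p under 0.05, and the median was 0.08. The 36 cytosolic ribosomal protein genes summed to 16116 and 15300 CPM in KO and 18961 and 17083 CPM in KO EAE, with 5 higher and 2 lower at an unadjusted p under 0.05, 0 called by edgeR and Rps19 alone by DESeq2. Ribosomal protein genes have many processed pseudogenes, which can share their reads. Genes named in this paragraph and the last were chosen after their values were seen, except for Hspa8 and Dnaja1.

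In the remaining lists edgeR called 0 genes as well. Among state lists, T cell identity genes had a median log2 difference of 0.02 over 26 genes, naive and central genes 0.03 over 20, checkpoint receptors 0.04 over 21, integrins 0.05 over 25, chemokine receptors 0.06 over 23, TNF receptors 0.06 over 21, BCL2 family genes 0.03 over 24, p53 targets 0.06 over 19, stress response genes 0.10 over 23, TGF-beta pathway genes 0.11 over 26, sterol synthesis genes 0.12 over 24, interferon-gamma GTPases 0.15 over 24 and glucocorticoid-induced genes 0.18 over 23. In none of these 13 lists did more than 4 members have an unadjusted p under 0.05 in the same direction, and DESeq2 called at most 1 member of each. Among markers of other cells the medians were -0.07 for 13 genes of MHC class II presentation, -0.20 for 15 stromal and endothelial genes, 0.03 for 7 plasma cell genes, 0.23 for 5 CD8 genes, 0.36 for 13 erythroid and platelet genes and 0.55 for 11 basophil and mast cell genes. DESeq2 called Irf4 alone among these, and at most 2 members of each had an unadjusted p under 0.05 in either direction. The erythroid median became -0.47 and the stromal median -0.89 without KO EAE replicate 2.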
